A study of Homo sapiens with 15 samples.

Results

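The homeostatic chemokine genes *CXCL12*, *CXCL13* and *CXCL14* were followed across the 5 conditions of a stimulation experiment on THP-1 cells, a human monocytic leukemia line. They were chosen by their symbols, and because their read counts were higher with every preparation of bacterial extracellular vesicles (BEVs) than in unstimulated cells. They are 3 of 60286 genes in the count table and 3 of the 17198 genes that had enough reads to be tested. All 3 passed that filter on low counts only through the stimulated libraries. The study set vesicles collected by ultracentrifugation (UC) against vesicles precipitated with the antimicrobial peptide epsilon-poly-L-lysine (PL), and read the response of the cells from their RNA. RNA was sequenced from 15 libraries, 3 in each group. The NC group received PBS without BEVs. BEVs of *E. coli* were given at 1 μg/mL, prepared by UC (EUC) or by PL (EPL). BEVs of *S. aureus* were given at 10 μg/mL, prepared by UC (SUC) or by PL (SPL). The cells were wild type and came from 1 line, and the incubation lasted 6 hours by the study's methods, while the labels give day 0 for every library. Species and dose changed together, so that their parts in any difference between *E. coli* and *S. aureus* BEVs cannot be told apart. The labels do not say that libraries of a group came from separate cultures, and the p-values below therefore measure only the spread between these libraries.

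Homeostatic chemokines are secreted steadily in healthy tissue and place leukocytes within it, in contrast to inflammatory chemokines such as IL-8, which are switched on by infection. CXCL12 is made mainly by bone marrow stromal and endothelial cells and retains hematopoietic progenitors and neutrophils in the marrow through CXCR4, while ACKR3 scavenges it. CXCL13 draws B cells and follicular helper T cells into lymphoid follicles through CXCR5, and its classical source is the follicular dendritic cell. CXCL14 is abundant in skin and mucosal epithelium and acts on monocytes and dendritic cells, and its signalling receptor is not settled.

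The genes lie on different chromosomes. In the human assembly hg38 with GENCODE 44, *CXCL12* (ENSG00000107562) spans chr10:44370165-44386493 on the minus strand, *CXCL13* (ENSG00000156234) spans chr4:77511753-77611834 on the plus strand, and *CXCL14* (ENSG00000145824) spans chr5:135570679-135579279 on the minus strand. *CXCL14* lies within the span of *SLC25A48*, a gene of the opposite strand, with which it shares 108 exonic bases. It shares 95 exonic bases with the lncRNA ENSG00000250167, also of the opposite strand, which was counted but had too few reads to be tested. No source used here says whether reads were counted by strand.

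The 250 bases upstream of the RefSeq start sites are shown because the 3 genes rose in the same groups and their upstream sequences can be compared. They come from the RefSeq annotation of GRCh38.p14 and run 5′ to 3′ on the strand of the gene, ending 1 base before the start. The windows are chr10:44385098-44385347 (minus strand), chr4:77605570-77605819 (plus strand) and chr5:135578992-135579241 (minus strand). For *CXCL13*, which has an upstream and a downstream RefSeq start, the window of the downstream start is printed. GENCODE 44 places the outermost *CXCL12* and *CXCL14* starts farther upstream, so these windows lie inside the spans given above. Capitals mark the GC box GGGCGG on either strand, the TATA box TATAAA on either strand, and the AP-1 pattern TGANTCA. Overlapping matches are merged.

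CXCL12: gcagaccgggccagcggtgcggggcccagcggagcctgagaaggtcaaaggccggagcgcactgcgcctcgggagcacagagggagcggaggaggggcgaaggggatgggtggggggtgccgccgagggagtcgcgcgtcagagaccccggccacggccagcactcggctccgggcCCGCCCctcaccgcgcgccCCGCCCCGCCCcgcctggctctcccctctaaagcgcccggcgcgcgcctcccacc
CXCL13 downstream start: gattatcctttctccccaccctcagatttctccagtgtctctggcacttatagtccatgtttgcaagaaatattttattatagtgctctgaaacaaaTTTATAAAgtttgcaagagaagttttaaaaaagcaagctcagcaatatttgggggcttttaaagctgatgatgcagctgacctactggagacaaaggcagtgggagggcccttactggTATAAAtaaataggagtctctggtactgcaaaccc
CXCL14: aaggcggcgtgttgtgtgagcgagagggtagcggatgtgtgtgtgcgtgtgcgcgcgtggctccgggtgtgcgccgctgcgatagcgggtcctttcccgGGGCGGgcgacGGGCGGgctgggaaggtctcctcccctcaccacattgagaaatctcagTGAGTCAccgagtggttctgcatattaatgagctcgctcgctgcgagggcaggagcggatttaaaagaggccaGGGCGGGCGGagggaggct

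The windows were not alike in base composition. G and C made up 78.0% of the *CXCL12* window, 40.4% of the *CXCL13* window and 64.4% of the *CXCL14* window, and 94.3%, 13.5% and 65.4% of 34788 RefSeq promoter windows had a lower share. *CXCL12* held 31 CpG dinucleotides, *CXCL14* held 25 and the printed *CXCL13* window held 0. Of the TATA boxes in the printed *CXCL13* window, 1 lay at -35 to -30 from the start and the others, on opposite strands, overlapped at -153 to -146. The window of the upstream *CXCL13* start, not printed, held a TATA box at -181 to -176. The TATA box was found in 10.8% of all windows. *CXCL12* had 3 GC boxes and *CXCL14* had 4, a motif found in 42.6% of windows and added to the search after the sequences had been read. *CXCL14* alone of the windows searched for the 3 genes had the AP-1 pattern, at -92 to -86, which 6.59% of windows held. No window matched the NF-kappa B consensus, which 5.21% of windows held, the STAT pattern TTCNNNGAA (6.57%), the ISRE pattern GAAANNGAAA (3.02%) or the hypoxia core ACGTG (18.5%). The looser NF-kappa B pattern GGGNNNNNCC occurred in the *CXCL12* and the printed *CXCL13* windows and in 54.4% of all windows. Both strands were searched for every motif, and a match or its absence describes only these letters.

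Total assigned reads ran from 14399421 to 16637345 per library, with a median of 15831655. On the first principal component of the within-group deviations, which held 34.8% of that variance, EUC3, EPL1 and SUC3 lay at one end (scores of 31.7 to 43.9) and EUC1 at the other (-36.0). The results that rest on these 3 libraries are also given without them. No replicate pair agreed within sampling noise.

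All 3 chemokines were close to undetected in unstimulated THP-1 cells and were counted in every stimulated library. *CXCL12* was the most abundant. It had 3, 4 and 0 reads in the NC libraries. It had 833, 720 and 749 reads in EUC, and 829, 814 and 748 reads in EPL. It had 363, 240 and 260 reads in SUC, and 466, 417 and 368 reads in SPL. Thus all *E. coli* libraries were above all *S. aureus* libraries, and every SPL library was above every SUC library. Counts per 1000000 reads of the TMM-scaled library (CPM) averaged 0.142 ± 0.125 in NC, and 49.8 ± 4.06, 51.0 ± 3.92, 19.0 ± 5.15 and 27.3 ± 2.24 in EUC, EPL, SUC and SPL (SD, n = 3 each). Of the tested genes, 1.74% had a lower mean CPM than *CXCL12* in NC, against 74.1% in EUC and 55.6% in SUC.

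*CXCL14* came next. Its counts were 1, 3 and 0 in NC, 121, 126 and 131 in EUC, and 100, 90 and 79 in EPL. They were 52, 38 and 35 in SUC, and 60, 48 and 67 in SPL. The EUC libraries were the highest and did not overlap with the EPL libraries, whereas the SUC and SPL ranges overlapped. The mean level was 0.0801 ± 0.0893 CPM in NC, and 8.18 ± 0.384, 5.74 ± 0.814, 2.75 ± 0.699 and 3.85 ± 0.764 in EUC, EPL, SUC and SPL.

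*CXCL13* had the fewest reads. A single read was counted in the NC group, with 0, 1 and 0 reads in its libraries. EUC had 55, 68 and 74 reads, and EPL had 101, 64 and 52. SUC had 10, 21 and 11 reads, and SPL had 29, 5 and 20. Every *E. coli* library again lay above every *S. aureus* library, but within a species the methods overlapped. The levels were 0.0196 ± 0.0340 CPM in NC, and 4.27 ± 0.649, 4.65 ± 1.76, 0.907 ± 0.351 and 1.18 ± 0.783 in EUC, EPL, SUC and SPL. The biological coefficient of variation fitted for *CXCL13* was 0.316, against 0.124 for *CXCL12*, 0.128 for *CXCL14* and a median of 0.123 over the tested genes. Its lowest stimulated library, SPL2, had 5 reads, with a 95% Poisson interval of 1.62 to 11.7 that covers counting error only.

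**Figure D1:**
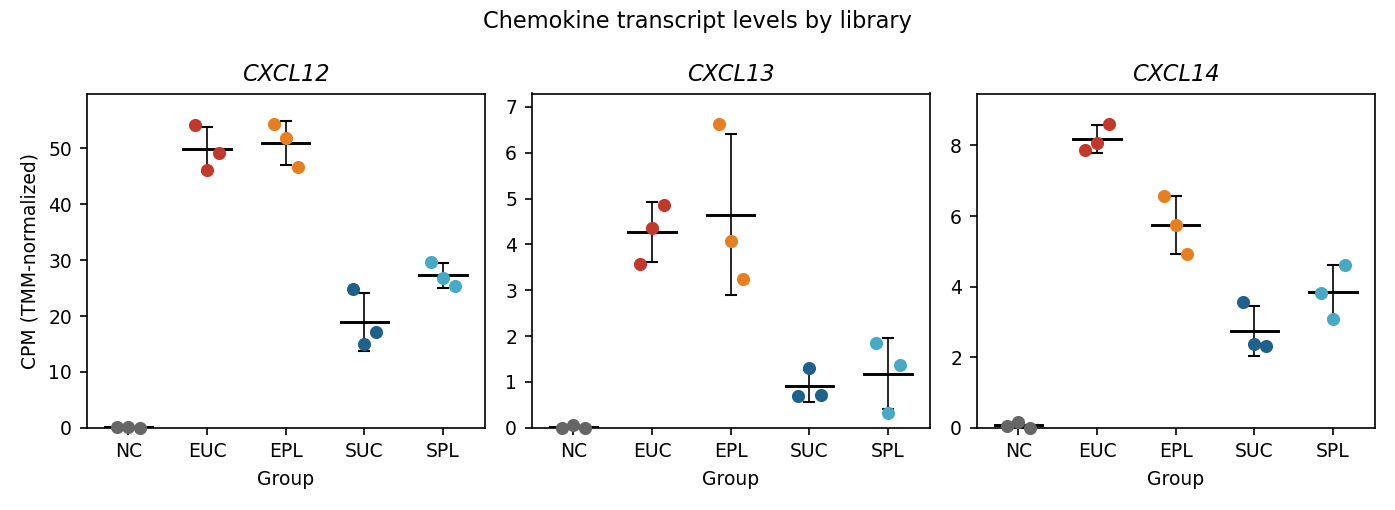
TMM-normalized CPM of *CXCL12*, *CXCL13* and *CXCL14* (y axis, a separate linear scale in each panel) in the 5 groups (x axis). Points are single libraries, long bars are means and whiskers are SD over 3 libraries. The NC points lie at or near 0, and all EUC and EPL points lie above all SUC and SPL points for each gene.

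Because the rise against NC chose the genes, it is given as a description without a test. The pooled *CXCL12* count, per TMM-scaled library size, was 351.7 times NC in EUC (95% exact binomial interval 170 to 876), 359 times in EPL (174 to 895), 133 times in SUC (64.3 to 332) and 193 times in SPL (93.5 to 482). For *CXCL14* the ratios were 101 (39.1 to 373), 70.8 (27.3 to 262), 33.7 (12.8 to 126) and 47.3 (18.2 to 176) in the same order. For *CXCL13* they were 211 (37.4 to 8363), 228 (40.6 to 9060), 45.3 (7.70 to 1832) and 58.4 (10.0 to 2349), each set against that single NC read. The width of these intervals comes from the 7, 4 and 1 reads of the NC group. In the fit of edgeR, the log2 fold changes against NC ranged from 6.98 to 8.41 for *CXCL12*, from 5.03 to 7.36 for *CXCL13* and from 4.95 to 6.53 for *CXCL14*. They depend on the prior count and on single NC libraries. Without NC2, which held the only *CXCL13* read of its group, the value of *CXCL13* in EUC moved from 7.24 to 9.05. Among all tested genes, 9.43%, 9.38%, 6.82% and 7.76% were called up in EUC, EPL, SUC and SPL, and 6.33% in all 4.

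To compare the genes with each other, the levels were divided by the length of the merged exons (6143 bases for *CXCL12*, 1435 for *CXCL13* and 1975 for *CXCL14*). In EUC the level per kilobase was 8.11 ± 0.660 CPM per kb for *CXCL12*, 4.14 ± 0.194 for *CXCL14* and 2.97 ± 0.452 for *CXCL13*, and these ranges did not touch. In EPL it was 8.30 ± 0.638 for *CXCL12*, 3.24 ± 1.23 for *CXCL13* and 2.91 ± 0.412 for *CXCL14*, so the lower pair did not differ beyond its spread. With *S. aureus* BEVs the order was *CXCL12*, *CXCL14* and *CXCL13*, at 3.09, 1.39 and 0.632 CPM per kb in SUC and 4.45, 1.95 and 0.825 in SPL, with no overlap of libraries between the genes. Taking the longest transcript in place of the merged exons raised *CXCL12* to 14.1 CPM per kb in EUC and left it first.

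All 3 genes differed between *E. coli* and *S. aureus* BEVs, which were also given at different doses. This contrast was not part of the choice of the genes, although a high *CXCL13* value with *E. coli* BEVs was already known. Averaged over both isolation methods, the *E. coli* groups were above the *S. aureus* groups by a log2 fold change of 1.15 for *CXCL12* (SE 0.115, 95% interval 0.90 to 1.39, edgeR adjusted p = 8.11e-06). The difference was 2.09 for *CXCL13* (SE 0.299, interval 1.46 to 2.72, edgeR adjusted p = 0.000225). It was 1.08 for *CXCL14* (SE 0.160, interval 0.74 to 1.42, edgeR adjusted p = 0.000309). A gene counted as a DEG (was called) if its adjusted p did not exceed 0.01 and its levels differed by a log2 value of 1 or more. By this rule 3 of 3 chemokines were called higher with *E. coli* BEVs, where 0.663% of all tested genes were. All 6 *E. coli* libraries exceeded all 6 *S. aureus* libraries for each of them, a pattern held by 3.05% of tested genes. The *CXCL14* value stands close to the fold threshold, and without the libraries EUC3, EPL1 and SUC3 it was 0.95 and the call was lost. These shares are over all tested genes, of which 6.33% were called up in all 4 BEV groups. The species call is not particular to these chemokines. With any 1 BEV library left out, it was also made for *IL7R* (log2 1.12 to 1.24) and *TRAF1* (1.26 to 1.43), genes of similar profile described below. Others of those genes, such as *CMKLR1* and *SAMSN1*, were not called.

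Within UC the differences were 1.39 for *CXCL12* (SE 0.165, edgeR adjusted p = 7.16e-05), 2.21 for *CXCL13* (SE 0.431, adjusted p = 0.00472) and 1.58 for *CXCL14* (SE 0.228, adjusted p = 0.000395). All 3 were called, beside 0.733% of tested genes. Within PL the differences were smaller in value and none was called in edgeR, beside 0.105% of tested genes. *CXCL12* differed by 0.90 (interval 0.56 to 1.24, edgeR adjusted p = 0.00979) and missed the fold threshold. *CXCL13* differed by 1.97 (interval 1.09 to 2.84) and missed the p threshold (edgeR adjusted p = 0.0267), and *CXCL14* differed by 0.58 (interval 0.11 to 1.05, adjusted p = 0.408). Other settings did call *CXCL13* within PL. DESeq2 gave a log2 value of 1.97 (adjusted p = 0.000814), edgeR without the filter on low counts gave 1.96 (adjusted p = 1.8e-07), and edgeR without EUC3, EPL1 and SUC3 gave 1.62 (adjusted p = 0.00865). The UC calls rest on a spread shared by all 5 groups. When only EUC and SUC were fitted, the adjusted p-values of edgeR were 0.015, 0.0163 and 0.0147 and no call was made. The *CXCL13* call within UC was also lost without EUC2, SUC1, SUC2 or SUC3, at log2 fold changes of 2.04 to 2.58.

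The isolation method gave no called difference in any of the chemokines. Between EPL and EUC, *CXCL12* differed by a log2 fold change of 0.03 (95% interval -0.30 to 0.36) and *CXCL13* by 0.12 (-0.64 to 0.88). *CXCL14* was lower in EPL in all 3 libraries, by a log2 fold change of -0.51 (-0.96 to -0.07, unadjusted p = 0.0272, edgeR adjusted p = 0.947). Non-overlap in that direction was seen for 3.26% of tested genes. This comparison called 0 of all tested genes in edgeR (0%), and 3.51% (604 genes) had an unadjusted p of at most 0.05. DESeq2, fitted as an alternative, also called 0 genes there.

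Between SPL and SUC, *CXCL12* was higher in SPL in all 3 libraries, with a log2 fold change of 0.53 (0.18 to 0.88, unadjusted p = 0.00575, edgeR adjusted p = 0.755). The same non-overlap was found for 6.87% of tested genes, 5.81% had an unadjusted p of at most 0.05, and 0.00581% (1 gene) passed the call. *CXCL13* differed by 0.37 (-0.67 to 1.41) and *CXCL14* by 0.49 (-0.02 to 1.00). The intervals leave room for differences of these sizes, and a missed threshold does not show that the preparations acted alike. The method difference was also compared between species. It was 0.50 lower in *E. coli* than in *S. aureus* for *CXCL12* (log2 value -0.50, interval -0.98 to -0.01), 0.25 lower for *CXCL13* (-0.25, interval -1.53 to 1.04) and 0.998 lower for *CXCL14* (-0.998, interval -1.68 to -0.32, unadjusted p = 0.00643). The edgeR adjusted p was 1 for each. This interaction called 0 of all tested genes in edgeR and 3 in DESeq2, none of them a chemokine described here, and 3.83% (659 genes) had an unadjusted p of at most 0.05.

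**Figure D2:**
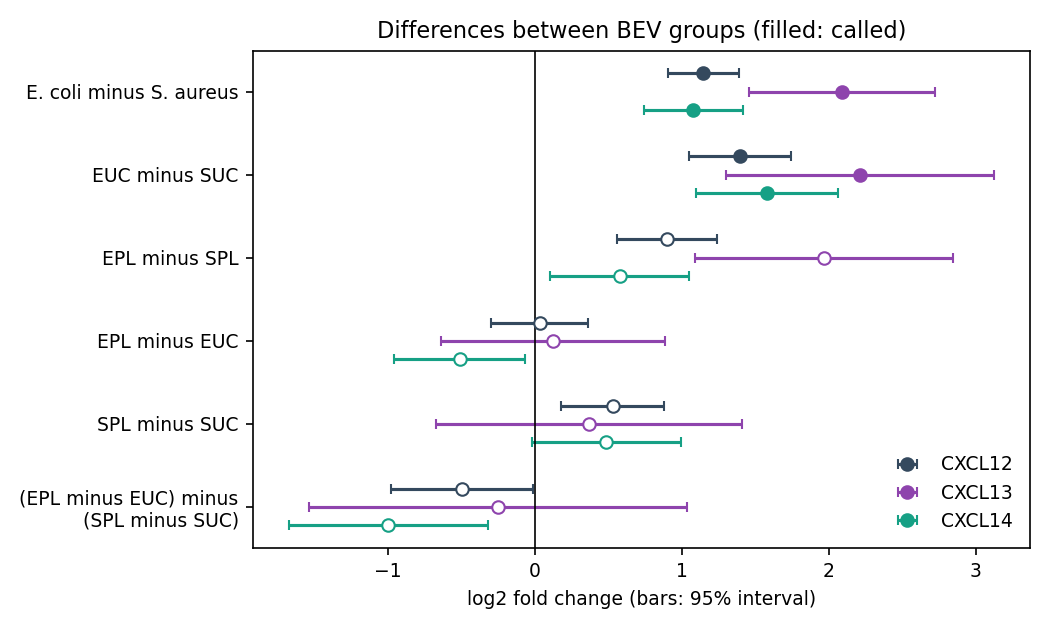
Fitted log2 fold change (x axis) with its 95% interval (bars) for the 3 chemokines in 6 comparisons between BEV groups (y axis). Filled points passed both thresholds. All 3 are filled for *E. coli* minus *S. aureus* and for EUC minus SUC, and the EPL minus EUC intervals of *CXCL12* and *CXCL13* include 0.

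The ratio of *CXCL12* to *CXCL14* reads stayed between 5.49 and 9.47 in the stimulated libraries. Within a library, *CXCL12* had 6.11 ± 0.675 reads for each *CXCL14* read, 8.93 ± 0.597, 6.91 ± 0.560 and 7.32 ± 1.64 in EUC, EPL, SUC and SPL. The EPL ratios, from 8.29 to 9.47, lay above the EUC and SUC ratios but overlapped with those of SPL, from 5.49 to 8.69. The *CXCL12* to *CXCL13* ratio was less even, from 8.21 in an EPL library to 83.4 in SPL2. Over the 12 stimulated libraries, the root-mean-square difference of centred log2 CPM profiles was 0.257 between *CXCL12* and *CXCL14*, 0.767 between *CXCL12* and *CXCL13* and 0.751 between *CXCL13* and *CXCL14*.

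The same measure was used to find the genes with the most similar profiles over all 15 libraries, among 14525 genes with a mean of at least 1 CPM. For *CXCL12* these were *IL7R* (the interleukin-7 receptor chain, 0.266), *TNFRSF18* (a TNF receptor family member, 0.311) and *CMKLR1* (a chemerin receptor, 0.379). *IL7R* went from 1.08 CPM in NC to 249, 224, 87.6 and 124 in EUC, EPL, SUC and SPL. For *CXCL14* they were *CAMK2A* (a calmodulin-dependent kinase, 0.242), *SAMSN1* (0.270) and *CLEC7A* (the beta-glucan receptor dectin-1, 0.292). For *CXCL13* the nearest profiles were *CCNJL* (0.560), *TFPI2* (a Kunitz-type protease inhibitor, 0.570) and ENSG00000233834 (0.627), all at a greater distance. The distance partly reflects how far a gene rose from NC. Within the 12 stimulated libraries alone, *CXCL12* was nearest to *ECE1* (0.103), *TRAF1* (0.143) and *STAT4* (0.162), and *CXCL14* to *CXCL3* (0.169), *PLA2G7* (0.186) and *IL1B* (0.191). *CXCL13* was nearest to *PI15* (0.580), *NRP2* (0.590) and again *TFPI2* (0.592). *IL1B* and *CXCL3* encode the inflammatory cytokine IL-1β and a neutrophil chemokine. These likenesses are descriptions over libraries that share their groups and depths.

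The receptors of these ligands did not follow one direction. *CXCR4*, the signalling receptor of CXCL12, had 83.3, 88.8 and 84.7 CPM in the NC libraries. It ranged from 25.7 to 27.5 CPM in EUC, from 22.3 to 25.4 in EPL, from 29.8 to 33.1 in SUC and from 27.2 to 31.0 in SPL. Every stimulated library was therefore below every NC library. Log2 fold changes were -1.70, -1.83, -1.45 and -1.56 for EUC, EPL, SUC and SPL (SE 0.0828 to 0.0842, edgeR adjusted p at most 3.38e-10), beside 5.75%, 5.15%, 3.06% and 3.7% of tested genes called down. *ACKR3*, the scavenging receptor, had 1.59 to 2.30 CPM in NC and 3.50 to 6.77 CPM in the 12 stimulated libraries, without overlap. It rose by log2 fold changes of 1.62, 1.49, 1.12 and 1.34 in the same order (SE 0.203 to 0.209, edgeR adjusted p at most 0.000459). *CXCR5*, the receptor of CXCL13, had too few reads to be tested, with 0 in each NC library, 3 to 4 in EUC, 2 to 4 in EPL and in SUC, and 0 to 1 in SPL. The difference between species was not called for *CXCR4* (log2 -0.26, edgeR adjusted p = 0.0125) or *ACKR3* (0.32, adjusted p = 0.201).

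**Figure D3:**
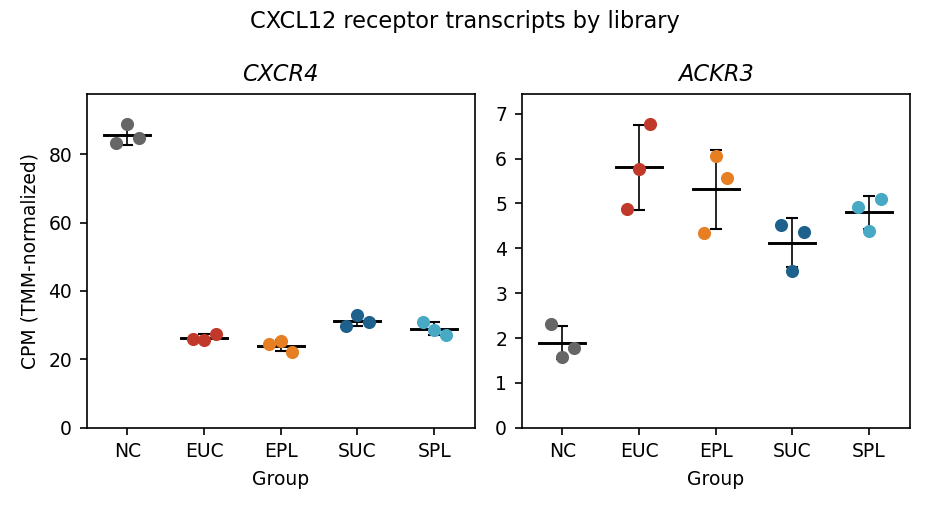
TMM-normalized CPM (y axis, linear, a separate scale in each panel) of the CXCL12 receptors *CXCR4* and *ACKR3* in the 5 groups (x axis). Points are libraries, long bars means and whiskers SD over 3 libraries. *CXCR4* is highest in NC, at 83.3 to 88.8 CPM, and *ACKR3* is lowest there, at 1.59 to 2.30 CPM.

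The receptor list and the gene lists below were drawn up with earlier results of these data known, and their counts are descriptions. Of 23 chemokine receptor genes in the list, 13 could be tested. In all 4 BEV groups 3 of these were called up (*CCR1*, *CCR7* and *ACKR3*), beside 6.33% of all tested genes, and 2 were called down (*CXCR2* and *CXCR4*), beside 2.41%. *CCR7*, which guides dendritic cells to lymph nodes, had no read in NC and reached 1.45, 1.36, 0.480 and 0.413 CPM in EUC, EPL, SUC and SPL. It was the single receptor called between species, with a log2 fold change of 1.64 (SE 0.273, edgeR adjusted p = 0.00139). *CX3CR1*, the fractalkine receptor, was lower with *E. coli* BEVs by a log2 value below the fold threshold (-0.63, edgeR adjusted p = 8.73e-05). *CCR1*, a monocyte receptor for inflammatory CC chemokines, went from 71.1 CPM in NC to between 153 and 198 in the BEV groups. *CXCR2*, the neutrophil receptor of IL-8, went from 18.9 CPM to between 5.52 and 7.79. Some receptors were called in part of the groups. *GPR25* was called up in EPL, SUC and SPL, *ACKR2* down in EUC, SUC and SPL, and *CX3CR1* down in EUC. Each of these partial calls depended on single libraries. The *GPR25* calls were lost without NC2 or NC3, in EPL also without EPL2 (edgeR adjusted p up to 0.0677) and in SPL without SPL3. The *ACKR2* calls were lost without NC1, in EUC also without NC3, EUC1 or EUC3, in SUC without SUC2, and in SPL in every omission except that of SPL1 (adjusted p up to 0.0444). The *CX3CR1* change was -0.98 on the log2 scale without EUC3. The list's median log2 fold change lay between 0.04 and 0.40 in the 4 groups, against -0.01 to 0.01 over all tested genes.

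Few other homeostatic chemokines had enough reads. Of 16 listed, 4 could be tested, and *CCL19*, the CCR7 ligand of lymphoid tissue, was the one called up in all 4 groups, beside 6.33% of all tested genes. It went from 0.0588 CPM in NC to 3.80, 2.73, 1.51 and 2.02 in EUC, EPL, SUC and SPL. Its NC level rests on 3 reads in a single library. The log2 fold change was 5.79 in EUC (SE 0.629, edgeR adjusted p = 8.9e-07) and 4.47 in SUC (SE 0.712, adjusted p = 0.000101), and its difference between species was not called (0.88, adjusted p = 0.061). With 1 library of the compared groups left out, the rise of *CCL19* stayed called but ranged from 5.25 to 8.88 in EUC and from 3.93 to 7.56 in SUC. *CCL22*, a ligand of CCR4 made by macrophages and dendritic cells, was called up in EUC, from 6.19 to 13.1 CPM, and had 12.2, 6.87 and 7.63 CPM in EPL, SUC and SPL. The median log2 fold change of the 4 tested genes lay between 0.12 and 0.86.

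Of 32 listed genes that carry or dampen the receptor signal, 31 were tested. In all 4 groups 3 of them were called up (*RGS1*, *RGS2* and *PIK3R5*), beside 6.33% of all tested genes, and 2 were called down (*RGS18* and *PREX1*), beside 2.41%. *RGS2*, a regulator that shortens G protein signalling, went from 0.815 CPM in NC to 8.06, 7.63, 3.80 and 4.58 in EUC, EPL, SUC and SPL. *RGS18*, of the same family, went from 14.9 CPM to between 4.55 and 5.54. *PIK3R5*, a regulatory subunit of PI3K gamma, rose from 20.5 CPM to between 61.9 and 119, and *PREX1*, a Rac activator, fell from 252 CPM to between 90.2 and 123. The *PREX1* calls in SUC and SPL stand at the fold threshold and were lost without NC1 or SPL3 (-0.994 in SPL) or SUC3 (-0.996 in SUC). *RGS1*, a brake on chemokine receptor signalling in lymphocytes, was the one listed gene called between species (log2 1.20, edgeR adjusted p = 0.00363), a call lost without EUC2, EPL2, SUC2, SPL1 or SPL2. The median of the list lay between 0.08 and 0.15 on the log2 scale.

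A list of 25 genes linked to ligand cleavage and retention included proteases, proteoglycans and enzymes of heparan sulfate synthesis. Of these genes 22 were tested. In all 4 groups 6 were called up (*MMP1*, *MMP2*, *MMP9*, *CPM*, *SDC4* and *EXT1*) and 0 were called down, beside the same 6.33% and 2.41% of all tested genes. MMP1, MMP2 and MMP9 are proteases known to clip the amino terminus of CXCL12. *MMP9* went from 0.0395 CPM in NC to 51.2, 48.3, 24.8 and 33.5 in EUC, EPL, SUC and SPL, and *MMP2* from 20.4 to between 43.2 and 49.3. The gene of carboxypeptidase M (*CPM*), which trims the carboxyl end of peptides, went from 103 to between 319 and 394 on the same scale. *SDC4*, a heparan sulfate proteoglycan of the cell surface, went from 23.5 to between 113 and 137. *MMP1* was the one listed gene called between species (log2 1.06, edgeR adjusted p = 0.000722), and this call was lost without EPL2, SUC2 or SPL2. The median of the list lay between 0.24 and 0.53 on the log2 scale.

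The alternative NF-kappa B pathway is known to drive *CXCL12*, *CXCL13* and *CCL19* in the stroma of lymphoid tissue. Its 16 listed genes were tested singly, and the list as a whole was not tested. The list was drawn up with earlier results of these data known, so the number called is a description and no test of the pathway. In all 4 groups 8 of them were called up (*LTA*, *LTB*, *TNFSF13B*, *CD40*, *TRAF3*, *BIRC3*, *NFKB2* and *RELB*) and 0 down, beside 6.33% and 2.41% of all tested genes. *TNFSF14*, the ligand LIGHT, was called down in EUC and EPL, from 22.4 CPM in NC to 8.47 and 11.2, and had 13.5 and 14.1 CPM in SUC and SPL. The EPL call stands at the fold threshold. *NFKB2*, which encodes the p100 precursor, went from 32.2 CPM in NC to 653, 596, 436 and 505 in EUC, EPL, SUC and SPL. *RELB*, its partner, went from 22.2 CPM to between 187 and 224. *CD40*, a receptor that feeds the pathway, went from 4.47 to between 83.9 and 145 CPM, and *TRAF3*, which restrains it together with BIRC3, from 89.1 to between 186 and 196. The receptor gene *LTBR* and the kinase genes *MAP3K14* and *CHUK* were not called in any group. Their log2 fold changes were 0.16 to 0.30, 0.41 to 0.92 and 0.34 to 0.52. The median log2 fold change of the list lay between 0.78 and 1.03, against about 0 over all tested genes. The part of this pathway in the chemokine levels was not tested.

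**Figure D4:**
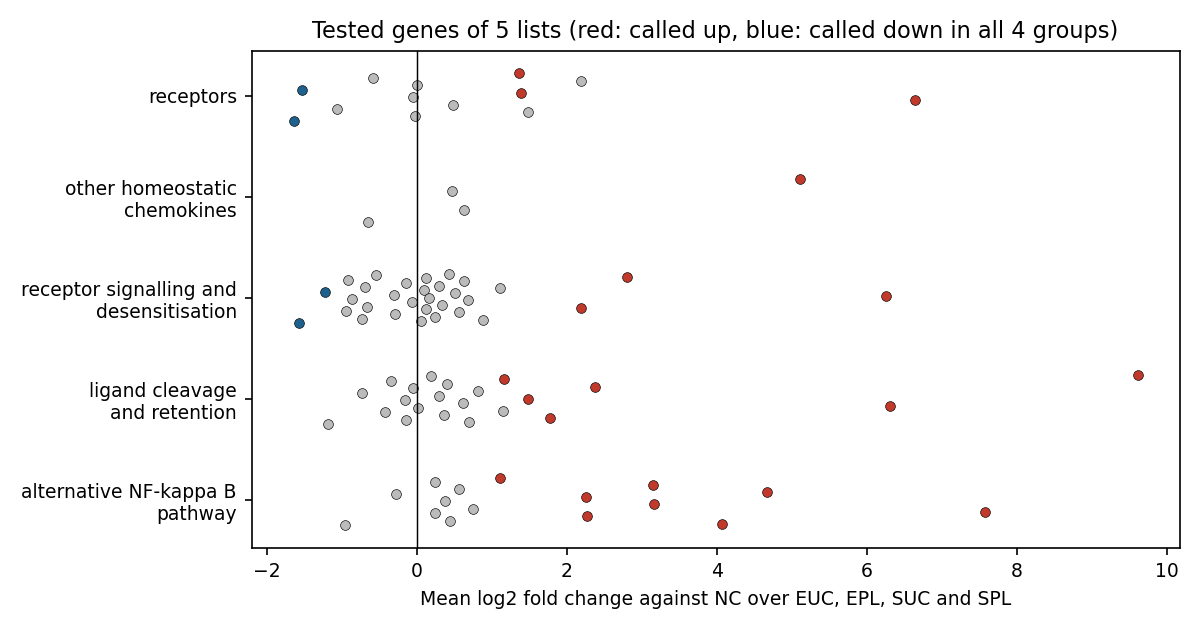
Mean fitted log2 fold change against NC over EUC, EPL, SUC and SPL (x axis) for the tested genes of 5 lists (y axis). Each point is a gene, red if called up and blue if called down in all 4 groups, and the vertical offset within a list has no meaning. The alternative NF-kappa B list has 8 red points of 16 and no blue one, while the receptor list has 3 red and 2 blue points.

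The surroundings of the genes were examined through the nearest tested genes, 2 on each side and any overlapping gene, a choice made after values had been seen. Over all tested genes, 6.33% were called up in all 4 groups, 9.43% in EUC and 9.38% in EPL. Near *CXCL14*, *NEUROG1*, a neurogenic transcription factor 34.7 kb away, was called up in all 4 groups. It went from 0.485 CPM in NC to 4.23, 3.80, 2.08 and 3.04 in EUC, EPL, SUC and SPL. Its call in SUC was lost without NC3 (log2 1.68, edgeR adjusted p = 0.0111). The lncRNA ENSG00000249639, 112.0 kb away, went from 1.09 CPM to between 3.54 and 4.27 and was also called up in all 4. The overlapping *SLC25A48* went from 0.163 CPM to 0.908 in EUC and 1.11 in EPL, where it was called up, and to 0.666 and 0.682 in SUC and SPL. The EUC call was lost without EUC1 or any single NC library (edgeR adjusted p up to 0.0526), and the EPL call without NC2 or EPL2 (up to 0.0168). Its part in the *CXCL14* count, and the reverse, was not tested. On the far side, *TGFBI* and *SMAD5*, at 449.7 and 553.6 kb, were not called in any group. None of the 4 neighbours of *CXCL13* (*CCNG2*, *CCNI*, *CNOT6L* and *MRPL1*), at 78.4 to 435.4 kb, was called, with log2 fold changes between -0.48 and 0.33. Next to *CXCL12*, *RASSF4* at 572.9 kb was called up in all 4 groups, from 98.4 CPM to between 270 and 331, and *ZNF32*, *ZNF32-AS2* and *TMEM72-AS1* were not called in any.

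**Figure D5:**
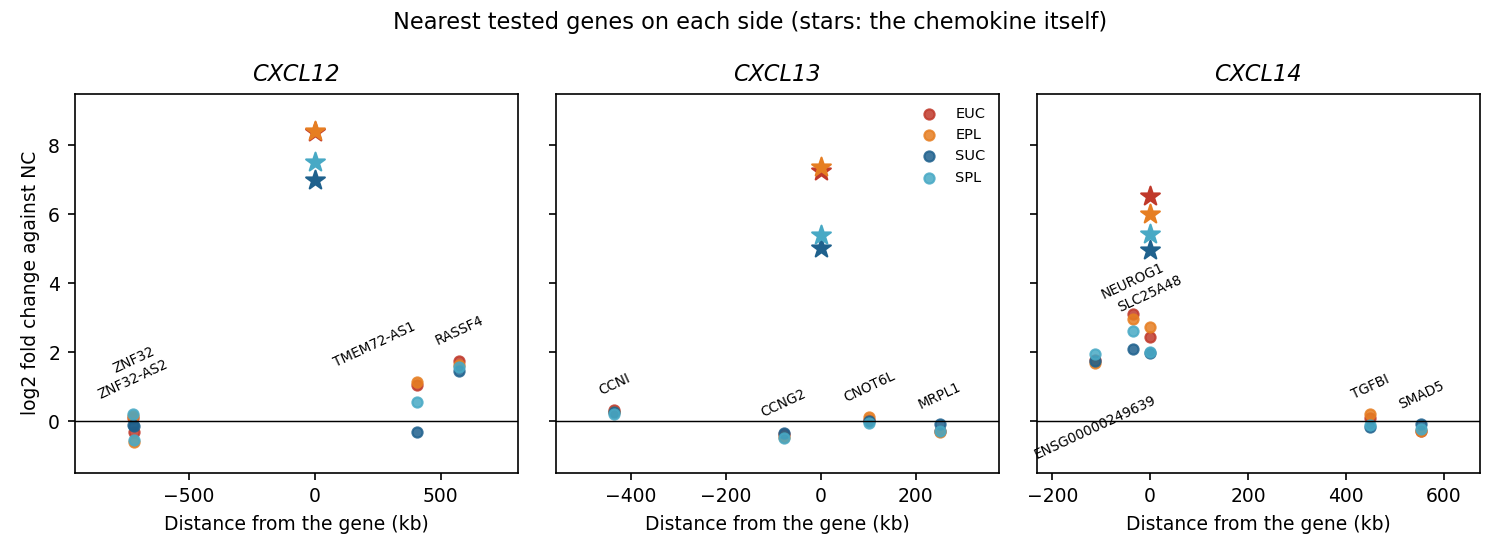
Fitted log2 fold change against NC (y axis) of the nearest tested genes by their distance from each chemokine gene (x axis, kb, negative towards lower coordinates). Colours are the 4 BEV groups and stars mark the chemokine itself, at distance 0. Around *CXCL13* all neighbours lie between -0.48 and 0.33, and *NEUROG1* lies 34.7 kb from *CXCL14*.

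Markers of the classical sources of these chemokines were checked in every group, since a bulk library cannot tell fewer cells of a type from less RNA per cell. Of the 12 markers of fibroblasts and marrow stroma 6 could be tested, and their summed level was 11.2 to 12.4 CPM in NC and 11.9 to 16.9 CPM in the BEV libraries. *POSTN* had no read in any library and *COL1A2* none outside SPL. *COL1A1* and *DCN* were called up in all 4 groups, *DCN* from 0.0196 CPM to between 0.751 and 1.52. *LEPR* and *PDGFRB*, which mark marrow stroma and pericytes, were not called and had lower means with BEVs, 8.43 CPM in NC against 5.00 to 6.56 for *LEPR* and 1.76 against 0.755 to 1.14 for *PDGFRB*. The 6 markers of follicular dendritic cells summed to 16.1 to 21.5 CPM in NC and to 240 to 748 CPM with BEVs. Nearly all of that sum was *SERPINE2*, a secreted protease inhibitor, which went from 9.82 CPM in NC to 642, 547, 281 and 338 in EUC, EPL, SUC and SPL. *CR2*, which defines those cells, had no read in any library, and *FDCSP* and *CLU* were called up in all 4. *MADCAM1* was not called, at 1.62 CPM in NC and 0.738 to 1.08 with BEVs, and neither was *FCER2*, at 5.40 and 7.92 to 8.34. Summed markers stayed below 2 CPM for endothelium (6 genes), between 1.37 and 4.05 CPM for epithelium (7 genes) and between 1.38 and 5.48 CPM for T and B cells (6 genes). Monocyte markers summed to 1389 to 1403 CPM in NC and to 2084 to 2696 CPM with BEVs. *SPI1*, a myeloid transcription factor, made up most of that difference, with 471 CPM in NC and 960 to 1198 with BEVs. *CD36* was also called up in all 4 groups, whereas *MPO*, the myeloperoxidase gene of early myeloid cells, was called down in all 4 (log2 -1.27 to -1.59). *CD14* was called up in EUC and SUC, from 3.77 CPM in NC to 8.87 and 7.99, and had 7.37 and 7.01 CPM in EPL and SPL. *CD33* and *LYZ* were not called, at 82.8 and 90.4 CPM in NC against 50.1 to 64.8 and 66.1 to 84.0 with BEVs. *PTPRC*, *CSF1R* and *ITGAX* were not called either but had higher means, 145, 208 and 82.3 CPM in NC against 222 to 267, 281 to 334 and 120 to 138. *ITGAM*, *FCGR1A* and *TYROBP* were also not called. *CD68* had only 3 to 5 reads in each group. Over all tested genes, 6.33% were called up and 2.41% called down in all 4 groups. The part of these markers in the chemokine levels was not tested.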

How the data were processed

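RNA of 15 THP-1 libraries was sequenced, and the authors deposited 1 table of raw read counts per gene. Their processing notes and methods name FastQC 0.11.5, HISAT2 2.1.0, StringTie 1.3.3b, featureCounts and DESeq 1.28.0 with hg38. The annotation release and the strand setting used for counting were not given in the sources read. Raw counts favour long genes, and reads shared by overlapping genes may be split or lost.

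Groups were taken from the sample labels. In R 4.3.3, genes were filtered with filterByExpr, which left 17198, scaled by TMM and tested with the quasi-likelihood test of edgeR 4.0.16 over all 15 libraries with 1 coefficient a group. P-values were adjusted by Benjamini-Hochberg over all tested genes. DESeq2 1.42.0, other scaling, no filter, fits of only the groups compared, a replicate block and omission of libraries were the alternatives. CPM values are TMM-normalized. The script was tested on simulated data. Total counts of 14399421 to 16637345 per library limit precision below about 10 reads, as the Poisson intervals show.

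The members and the gene lists were chosen with earlier results of these data known. Named were the 3 members, receptors and homeostatic chemokines called in any BEV group, CXCR4, CXCR5 and ACKR3, the 4 most abundant genes per other list among those called in all 4 groups, the 3 most similar profiles and neighbouring genes. 1 further receptor that met this rule is not reported here. *TNFSF14*, *LTBR*, *MAP3K14*, *CHUK*, *RGS1* and *MMP1*, and list genes given only by name, were named outside this rule. Members of small counts, and the markers discussed, were named after their values were seen. GENCODE 44 gave a length for 17174 genes. Promoters come from RefSeq.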

Additional observations from a re-analysis of the deposited data

How the results depend on the processing

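Averaged over both methods, the species differences of the 3 chemokines kept direction and call under DESeq2, RLE scaling, no filter and the replicate block. They also did so with any 1 BEV library left out. *CXCL12* then ranged from 1.07 to 1.26, *CXCL13* from 1.86 to 2.33 and *CXCL14* from 1.01 to 1.18 (log2). Leaving out EUC3, EPL1 and SUC3 together was chosen after seeing the data. It put *CXCL14* at 0.95 (adjusted p = 0.000251), below the fold threshold, raised *CXCL13* between EPL and SPL to a call at 1.62 (adjusted p = 0.00865), turned EPL minus EUC to -0.020 for *CXCL12* and -0.11 for *CXCL13*, and left 1 signalling gene called down in all 4 groups in place of 2. *CXCL13* between EPL and SPL was also called by DESeq2 at 1.97 (adjusted p = 0.000814) and without the filter at 1.96 (adjusted p = 1.8e-07). With only EUC and SUC fitted, the calls of *CXCL12* (1.39), *CXCL13* (2.21) and *CXCL14* (1.57) were lost with fewer libraries to estimate the spread. DESeq2 gave 7.62 for *CXCL13* in EUC against NC. The cause of the other shifts was not tested.

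With 1 library left out, the fitted rise against NC ranged for *CXCL13* from 6.79 to 9.05 in EUC, 6.91 to 9.17 in EPL, 4.57 to 6.84 in SUC and 4.92 to 7.21 in SPL, and for *CXCL14* from 5.97 to 7.72, 5.46 to 7.20, 4.39 to 6.15 and 4.88 to 6.64. The highest values came without NC2. EUC minus SUC of *CXCL13* ranged from 2.04 to 2.58, and its call was lost without EUC2, SUC1, SUC2 or SUC3. EPL minus EUC ranged from -0.028 (without EUC2) to 0.097 for *CXCL12*, with -0.017 without EPL1, and from -0.22 (without EPL1) to 0.32 for *CXCL13*. For *CXCL13*, SPL minus SUC ranged from -0.12 to 0.82 and the interaction from -0.70 to 0.23, each turning sign without SPL1. Signalling genes called down in all 4 groups numbered 1 to 2, signalling genes called between species 0 to 2, and cleavage genes called between species 0 to 1. *RGS1* and *MMP1* are those called with all libraries.

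No pairing of the libraries by replicate number was seen, though 3 libraries a group cannot exclude it. Deviations of same-numbered libraries correlated from -0.45 to 0.52, above 0.1 in 7 of 30 pairs. Those of differently numbered libraries correlated from -0.48 to 0.49, above 0.1 in 12 of 60 pairs. With the replicate number as a block, the species difference was 1.16 for *CXCL12*, 2.09 for *CXCL13* and 1.08 for *CXCL14*, all called, and no call of the chemokines or count of a list changed. The *GPR25* call in EPL (2.03, edgeR adjusted p = 0.0118) and the *ACKR2* call in SPL (-1.05, edgeR adjusted p = 0.0113) were lost under the block.

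Depth limits the NC values most, since 7, 1 and 4 reads stand behind *CXCL12*, *CXCL13* and *CXCL14* there. Species and dose are confounded, and transcript levels say nothing of secreted protein.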
